A study of Sus scrofa with 10 samples.

Results

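The genes described here encode the subunits of the receptors for glutamate and GABA, the main excitatory and inhibitory transmitters of the brain. They were chosen by symbol, as every gene in the count files that starts with GRIA, GRIN, GRIK, GRID or GRM and a digit, or with GABRA, GABRB, GABRG, GABRD, GABRE or GABBR, without GRINA. This gave 43 of 22452 genes, of which 1 encodes a partner protein and not a subunit. The libraries hold the UMI counts (unique molecules counted per gene) of single cells or nuclei from the medial entorhinal cortex of the pig, the gateway between cortex and hippocampus. Whole cells were released with papain from fresh tissue, with 1 library from embryonic day (E) 50, 3 libraries each from E60 and E70, and 1 from adults. Nuclei were sorted by 7-AAD, a DNA dye, from frozen tissue, with 1 library each from E70 and adults. The fetuses were crossbred farm pigs, and the labels name no treatment or altered gene. The labels call the oldest stage adult, while the study's text also gives a postnatal day for it, and which of these it was could not be settled, so that adult below is only the label. A library held 1 to 3 pooled brains by the labels, so that an individual pig cannot be followed.

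Glutamate opens 3 families of ion channels, AMPA, NMDA and kainate receptors, each built of 4 subunits, and acts on the slower metabotropic receptors through G proteins. GABA opens the GABA-A receptor, a chloride channel of 5 subunits, and acts on the metabotropic GABA-B receptor. The subunits that a cell makes set how its receptors open and close. GRIA2, for example, makes AMPA receptors impermeable to calcium, and GRIN2B is the NMDA subunit of the young brain, which GRIN2A joins as synapses mature. Glia carry receptors for both transmitters, and oligodendrocyte precursors receive synapses from neurons.

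Cells were named by marker genes, and each class is called like its type. Levels are given as CPM, the UMIs of a gene scaled to 1000000 UMIs summed over the cells of a class in a library. A CPM depends on how well a transcript is captured, so a gene is compared with itself across classes and not with other genes. Of 28229 cells, 5930 were excitatory-like, 2385 interneuron-like, 965 intermediate progenitor (IP)-like, 4696 astrocyte and radial glia-like, 752 oligodendrocyte precursor (OPC)-like, 2108 oligodendrocyte-like and 2651 microglia-like, and 4244 were left unnamed. The total UMIs of a library lay between 2336865 and 55755512, and the median UMIs of a cell between 690 in the adult nuclei and 9403 in E70_2. Between any pair of libraries at most 57 cell barcodes were shared, and at most 1.83% of those of the smaller library.

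Several libraries stood apart. E60_1 and E60_2 held 1 excitatory-like cell each, against 1389 in E60_3. The astrocyte and radial glia-like cells of E60_1 and E60_2 held LHX2, a gene of the developing cortex, at 1.69 and 0.40 CPM, where those of the other fetal whole cell libraries held between 85.2 and 225.2 CPM. In E70_1 and E70_2 GRM8 was high in every class. This gene, which encodes a presynaptic metabotropic receptor, was at 351.6 CPM in the excitatory-like, 485.6 CPM in the interneuron-like, 433.3 CPM in the IP-like, 436.2 CPM in the astrocyte and radial glia-like and, among the microglia-like cells, 365.8 CPM, all in E70_1. The microglia-like cells of E70_1 were 20 cells. Elsewhere among the fetal whole cells, microglia held GRM8 at 17.0 to 55.4 CPM. In erythroid-like cells GRM8 was at 774.7 CPM in E70_1 and 936.2 CPM in E70_2, and at 7.8 to 18.3 CPM in the other fetal whole cell libraries. Microglia-like cells are shown beside the other classes and entered no test. Their summed level of all members was highest in E70_1, with 2747 CPM, and lowest in E70_3, with 541 CPM. The source of these even levels was not tested. The counts of the tested comparisons that hold E70_1 and E70_2 were also made without both for all but the difference between stage effects, which was decided with the data in view.

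**Figure D1:**
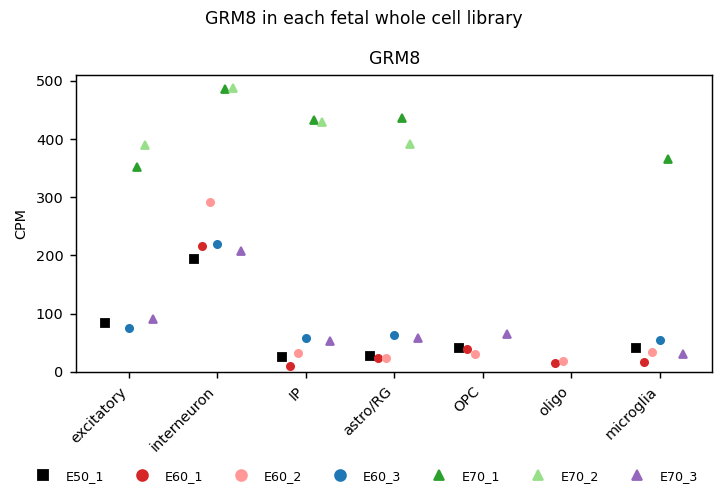
Level of GRM8 in CPM (vertical axis, linear) in each cell class (horizontal axis), with 1 point per fetal whole cell library that held at least 20 cells of the class. The points of E70_1 and E70_2 lie above those of the other libraries in most classes, and in E70_1 the microglia-like cells reach 365.8 CPM.

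Members were sorted by the class in which they stood highest. In the pooled fetal whole cells 8 members were below 10 CPM in every neural class (among them GABRA6, GABRD, GABRE, GRIN2C, GRIN3B, GRM2 and GRM6) and are not described further. Of the members with at least 200 UMIs in these cells, 13 were highest in interneuron-like, 10 in excitatory-like, 7 in astrocyte and radial glia-like, 4 in OPC-like, 2 in oligodendrocyte-like and 1 in IP-like cells. How many of all genes were highest in each class was not counted, so these counts say nothing particular to the members. Their order also rests on cells pooled over libraries that hold the classes in unequal numbers. GRIK5 and GABRG3, for example, were highest in excitatory-like cells when pooled but higher in interneuron-like cells in 4 and 3 of the 5 libraries with both. The summed level of all 43 members lay between 4279 and 6656 CPM in the interneuron-like cells of 7 libraries and between 3772 and 5064 CPM in the excitatory-like cells of 5 libraries. It lay between 3666 and 5981 CPM in the OPC-like cells of 4 libraries. The astrocyte and radial glia-like cells of 7 libraries held between 2301 and 4742 CPM, and the IP-like cells between 1327 and 3937 CPM. The range of the interneuron-like cells lay above that of the IP-like cells. All other pairs of these ranges overlapped.

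**Figure D2:**
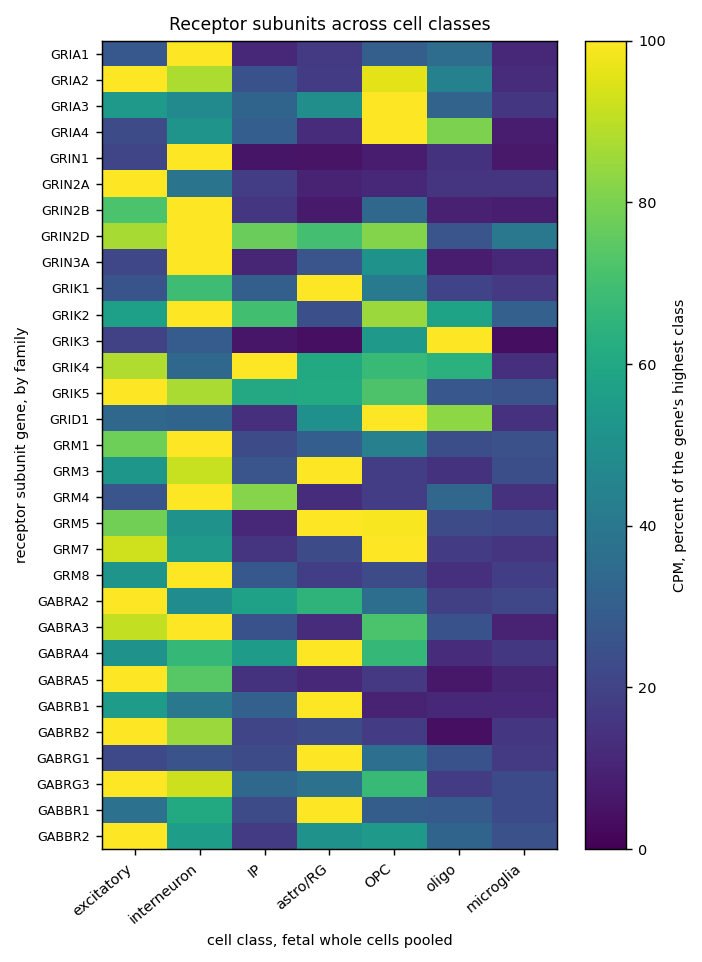
Level of 31 of the 35 members that reached 10 CPM in a neural class (rows, by receptor family) in 7 cell classes (columns), pooled over the fetal whole cell libraries and coloured as the percent of the gene's highest class. Microglia-like cells are low for nearly every gene, while GRIK1, GRM3, GABRA4, GABRB1, GABRG1 and GABBR1 are highest in astrocyte and radial glia-like cells.

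The first question was which subunits set the neurons apart from each other. Excitatory-like cells were compared with interneuron-like cells over the 5 fetal libraries with at least 20 cells of both (E50_1, E60_3 and the 3 E70 libraries), with edgeR's quasi-likelihood test, the library as a block, and Benjamini-Hochberg adjustment over 13206 genes. Of 34 members tested, 3 were higher and 9 lower in excitatory-like cells. Of all genes tested 2.73% were higher and 2.56% lower. The median log2 fold change was -0.14 over the members and 0.00 over all genes. The 9 that were higher in interneuron-like cells included AMPA, NMDA, kainate and metabotropic subunits, and none was a GABA receptor subunit.

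GRIA1, a long-tailed AMPA subunit that is recruited to synapses during plasticity, differed most. It was at 321.2, 1397.9, 1029.7, 1068.6 and 1522.1 CPM in the interneuron-like cells of E50_1, E60_3, E70_1, E70_2 and E70_3, and at 169.7, 140.9, 141.6, 162.5 and 168.5 CPM in the excitatory-like cells of the same libraries. The ranges did not overlap, and the level at E50 was the lowest of the 5 in the interneuron-like cells. Of the 720 interneuron-like cells of E50_1, 271 and 424 lay in the pair of clusters that also held those of E60_1 and E60_2, while most of those of E60_3 and E70 lay in another pair, 1 of which had GRIA1 among its 10 leading genes, so that stage and cluster cannot be told apart here. The log2 fold change was -2.60 ± 0.33 (SE), with an edgeR adjusted p of 0.0017. The interneuron-like cells of E60_1 and E60_2, which had no excitatory-like cells to be compared with, held 223.9 and 154.7 CPM. In the nuclei GRIA1 was at 588.1 CPM in the excitatory-like and 1694.3 CPM in the interneuron-like nuclei of E70, and at 512.2 and 1149.4 CPM in those of the adult.

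GRIN3A, an NMDA subunit that lowers calcium entry, was lower in excitatory-like cells by a log2 fold change of -1.79 ± 0.33 (SE, edgeR adjusted p = 0.013). GRIN2B was at 829.1 and 933.4 CPM in the interneuron-like cells of E60_3 and E70_3, against 154.6 and 467.8 CPM in the excitatory-like cells of these libraries, with a log2 fold change of -1.55 ± 0.34 (edgeR adjusted p = 0.031). At E50 its levels were nearly equal, at 350.4 and 347.8 CPM. GRIK1, a kainate subunit, GRIA4, an AMPA subunit with fast kinetics, and GRM3, a metabotropic receptor that lowers cAMP, were lower in excitatory-like cells by log2 fold changes of -1.45 ± 0.33, -1.32 ± 0.19 and -1.06 ± 0.21 (edgeR adjusted p 0.033, 0.0034 and 0.016). GRM8 and GRIK2 had log2 fold changes of -0.92 and -0.76. These 8 members were higher in interneuron-like cells in all 5 libraries.

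The 3 members that were higher in excitatory-like cells were GRIK4, a high-affinity kainate subunit (log2 fold change 1.13 ± 0.14, edgeR adjusted p = 0.0012), GRIN2A (1.02 ± 0.14, adjusted p = 0.0027) and GABRA2 (0.57 ± 0.14, adjusted p = 0.040). GRIN2A was at 46.2, 54.3, 40.8, 49.9 and 70.8 CPM in the excitatory-like and at 19.5, 26.4, 27.3, 26.8 and 36.9 CPM in the interneuron-like cells of the 5 libraries. The ranges did not overlap. GRIN2A and GRIK4 passed the test under all 12 alternative settings, and the other 10 members did not. Without E70_1 and E70_2 the counts were 2 higher and 4 lower and GRIA1 no longer passed. Without E60_3 or without E70_3, 3 members were lower, and without E50_1, 7 were higher and 11 lower. The share of all genes called under these settings is not given here, so these counts cannot be set against it. In every setting the 12 members kept their direction.

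The nuclei of E70, which had no part in the fit, showed the same direction for 11 of these 12 members, GRIK4 being the exception. The adult nuclei showed it for 8 of 12, with GRIA4, GRM3, GRIN2A and GRM8 in the other direction, at 120 excitatory-like and 43 interneuron-like nuclei. How many of all called genes kept their direction was not counted, so these counts say nothing particular to the members. The excitatory-like nuclei of the adult held the markers of their class at a summed 293 CPM, against 869 CPM at E70.

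**Figure D3:**
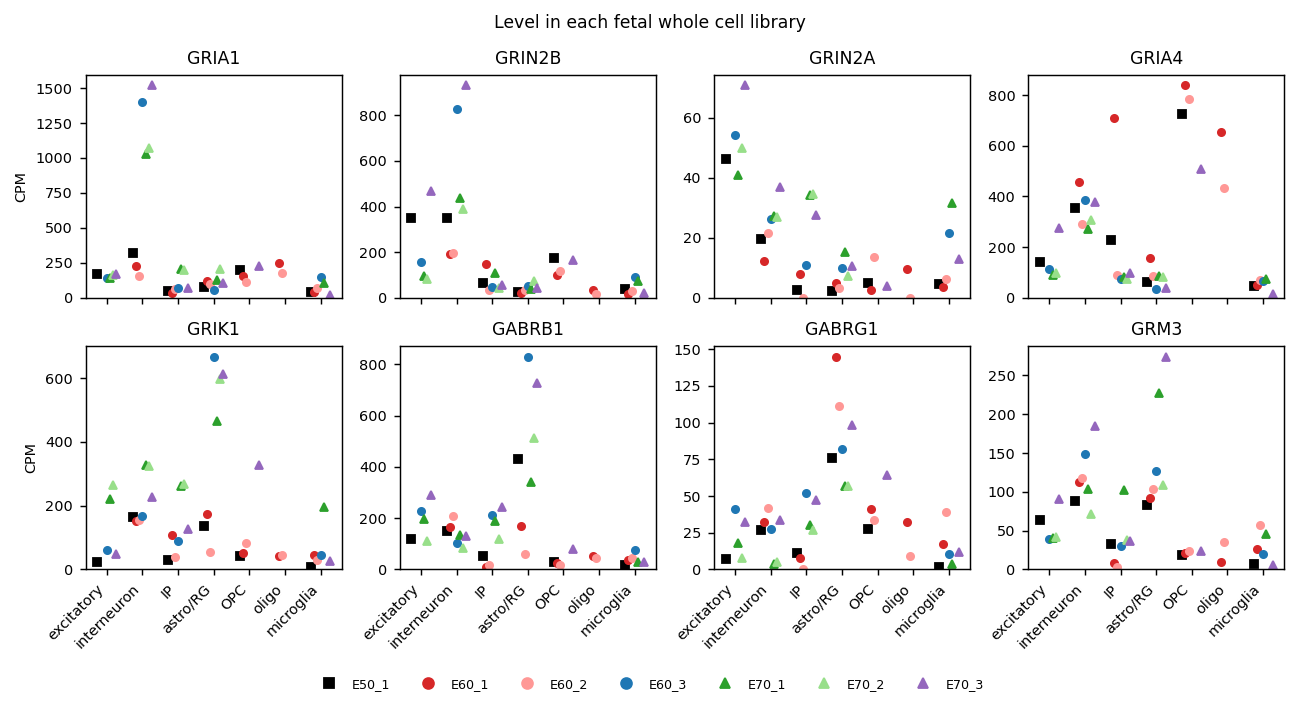
Level in CPM (vertical axes, linear, each from 0) of 8 members in 7 cell classes (horizontal axes), with 1 point per fetal whole cell library that held at least 20 cells of the class. GRIA1 and GRIN2B stand highest in interneuron-like cells of E60_3 and the E70 libraries, GRIA4 in OPC-like cells, and GRIK1 and GABRB1 in astrocyte and radial glia-like cells.

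The next question was which subunits differ between IP-like and excitatory-like cells. The cluster led by EOMES, an IP marker, held 150 of the 372 IP-like cells of E50_1, 115 of the 168 of E60_3 and 52 of the 117 of E70_3. The other clusters of this class had no IP marker among their 10 leading genes. That IP-like cells form the excitatory-like cells was not tested. Of 33 members tested over the same 5 libraries, 16 were higher and 2 lower in excitatory-like than in IP-like cells, where 12.1% of 13277 genes were higher and 12.3% lower. The median log2 fold change was 0.76 over the members and 0.03 over all genes. GABRA5, a subunit of extrasynaptic GABA-A receptors, was higher by a log2 fold change of 2.26 ± 0.41 (SE, edgeR adjusted p = 0.0021), GRM7, a presynaptic metabotropic receptor, by 2.17 ± 0.44 (adjusted p = 0.0039) and GABBR2, which carries the GABA-B receptor to the cell surface, by 2.08 ± 0.25 (adjusted p = 0.00015). GRIA2 was at 72.3, 206.0, 68.6, 84.2 and 195.2 CPM in the IP-like and at 399.6, 457.3, 230.8, 211.2 and 573.1 CPM in the excitatory-like cells. Its ranges did not overlap, with a log2 fold change of 1.67 ± 0.21 (edgeR adjusted p = 0.00021). GABRA4 was lower, by a log2 fold change of -0.64 ± 0.20 (edgeR adjusted p = 0.032). E70_1 and E70_2 entered with 20 and 24 IP-like cells. When the libraries were clustered without batch correction they held 0 each, and over the 3 libraries left 7 members were higher and 0 lower. Without E70_1 and E70_2 there were 21 higher and 1 lower. For these settings too the share of all genes called is not given here.

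The comparison of neurons with astrocytes and radial glia divided the members. Of 36 tested, 18 were higher and 7 lower in excitatory-like cells, where 22.4% of 13596 genes were higher and 19.3% lower. The median log2 fold change was 0.56 over the members and 0.11 over all genes. In interneuron-like cells, over 7 libraries, 19 of 34 members were higher and 3 lower, where 18.9% of 12411 genes were higher and 20.4% lower, with medians of 1.45 and 0.03. Both comparisons use the same glial cells. E70_1 and E70_2 entered both with 20 and 32 astrocyte and radial glia-like cells. Without batch correction they held 4 and 3 and left both fits. The counts without E70_1 and E70_2 were 18 higher and 7 lower, and 18 higher and 3 lower. Without E60_3, 11 members were higher in excitatory-like cells. Again the share of all genes called under these settings is not given here. Of the 25 members called in excitatory-like cells 16 passed under all 12 alternative settings, and of the 22 called in interneuron-like cells 17 passed under all 15.

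Among the AMPA and NMDA subunits the neuronal side was highest for GRIN2A in excitatory-like cells (log2 fold change 3.08 ± 0.35, edgeR adjusted p = 0.00014) and for GRIN1, the subunit that all NMDA receptors need, in interneuron-like cells (3.54 ± 0.75, adjusted p = 0.0035). GRIN1 was sparsely counted, at 0.3 to 15.2 CPM in the astrocyte and radial glia-like and 1.7 to 53.2 CPM in the interneuron-like cells. It did not pass under all 15 alternative settings, and in the adult nuclei it had the other direction. GRIA2 was higher by 2.59 ± 0.21 in excitatory-like and by 2.36 ± 0.18 in interneuron-like cells. GRIN2B was higher by 2.36 ± 0.53 in excitatory-like cells (adjusted p = 0.0060) and by 3.49 ± 0.26 in interneuron-like cells. It lay between 18.8 and 73.4 CPM in the astrocyte and radial glia-like cells of the 7 libraries and between 193.1 and 933.4 CPM in the interneuron-like cells, without overlap.

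The 7 members on the glial side of the comparison with excitatory-like cells included GRIK1, GABRG1, GABRA4, GABRB1, GRM3 and GABBR1. Against interneuron-like cells the astrocyte and radial glia-like cells held more GABBR1 and GABRA4 in 5 of 7 libraries and more GABRB1 in 6. GRIK1 was at 137.9, 667.3, 466.5, 599.0 and 613.1 CPM in the astrocyte and radial glia-like cells of E50_1, E60_3, E70_1, E70_2 and E70_3, against 23.1, 61.5, 222.0, 265.5 and 49.97 CPM in the excitatory-like cells. It was lower in excitatory-like cells in each of the 5 libraries, by a log2 fold change of -2.34 ± 0.38 (SE, edgeR adjusted p = 0.0012). The interneuron-like cells of these libraries held GRIK1 at 163.9 to 327.6 CPM, above the glial level of E50_1. In the astrocyte and radial glia-like cells of E60_1 and E60_2 it reached 174.8 and 55.2 CPM. GABRB1 followed the same libraries, with 829.5 CPM in E60_3 and 61.2 CPM in E60_2. It was lower in excitatory-like cells by -1.56 ± 0.18 (adjusted p = 0.00017). GABRG1 was at 56.8 to 144.8 CPM in the astrocyte and radial glia-like cells of the 7 libraries and at 3.9 to 41.6 CPM in the interneuron-like cells, without overlap. It was lower by -1.96 ± 0.32 in excitatory-like and by -1.87 ± 0.25 in interneuron-like cells (edgeR adjusted p 0.0012 and 0.00022). GRM3 and GABBR1, which binds GABA in the GABA-B receptor, were lower in excitatory-like cells by -1.39 ± 0.28 and -0.83 ± 0.14 (adjusted p 0.0034 and 0.0012). GABRB1 and GRM3 did not pass in excitatory-like cells when the libraries were clustered without batch correction.

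In the E70 nuclei 23 of the 25 members called between excitatory-like and astrocyte and radial glia-like cells had the same direction, and GABBR1 was among the 2 that did not. GRIK1 was at 2264.8 CPM in the astrocyte and radial glia-like and 243.7 CPM in the excitatory-like nuclei, and GABRB1 at 2175.5 and 713.1 CPM. In the adult nuclei, with 23 astrocyte and radial glia-like nuclei, 19 of 25 had the same direction. The 6 others were GRIK1, GABRG1, GABRA2, GABRA4, GABRB1 and GRIN1, which include 4 of the 7 members on the glial side. Between interneuron-like and astrocyte and radial glia-like nuclei 19 of 22 members at E70 and 20 of 22 in the adult had the direction of the whole cells. Here too the direction was not counted over all called genes.

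Many genes of the GABA-A subunits lie next to each other in the genome, by RefSeq on Sscrofa11.1. GABRG1, GABRA2, GABRA4 and GABRB1 lie on chromosome 8 between 36198056 and 37354950, GABRA6 and GABRB2 on chromosome 16 between 61855698 and 62240902, GABRG3 and GABRA5 on chromosome 1 between 139855461 and 140568204, and GABRE and GABRA3 on chromosome X between 123278459 and 123684814. In excitatory-like cells 3 of the 4 genes on chromosome 8 were lower than in astrocyte and radial glia-like cells, and GABRA2, which lies among them, was higher by a log2 fold change of 0.46 ± 0.17 (SE, edgeR adjusted p = 0.049). GABRB2 on chromosome 16, GABRA5 on chromosome 1 and GABRA3 on X were higher. GABRA5 was higher by 2.28 ± 0.37 and GABRA3 by 2.12 ± 0.33 (edgeR adjusted p 0.0011 and 0.00079).

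**Figure D4:**
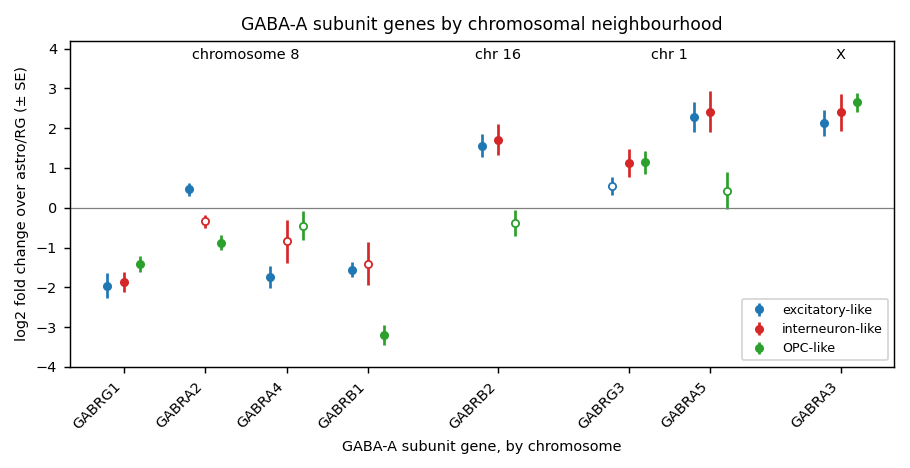
Log2 fold change with its standard error (vertical axis) of 8 GABA-A subunit genes, in chromosomal order by neighbourhood (horizontal axis), for excitatory-like, interneuron-like and OPC-like cells over astrocyte and radial glia-like cells. Filled points passed the edgeR test at an adjusted p of 0.05 and open points did not. The filled points on chromosomes 16, 1 and X are all above 0, and those on chromosome 8 are below 0 except GABRA2 in excitatory-like cells.

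OPC-like cells were compared with astrocyte and radial glia-like cells over 4 libraries (E50_1, E60_1, E60_2 and E70_3). Of 33 members 13 were higher and 6 lower, where 10.4% of 11691 genes were higher and 13.2% lower, with medians of 0.43 and -0.03. GRIK3, a kainate subunit of low affinity, was at 163.5, 136.5, 100.8 and 179.6 CPM in the OPC-like and at 10.4, 7.3, 5.8 and 17.0 CPM in the astrocyte and radial glia-like cells. The ranges did not overlap, and the log2 fold change was 3.88 ± 0.19 (SE). GRIA4 was at 723.7, 839.9, 786.3 and 508.5 CPM, against 63.0, 155.1, 86.3 and 38.3 CPM, a log2 fold change of 3.17 ± 0.19. GABRA3, GRIA2, GRM7 and GRIN2B were higher by 2.65, 2.45, 2.37 and 2.25. The 6 that were lower included GABRB1 (-3.21 ± 0.25) and GRM3 (-2.53 ± 0.24), with GABBR1, GABRG1, GRIK1 and GABRA2 at -1.61, -1.42, -1.11 and -0.88. Of the 19 members 13 passed under all 11 alternative settings, which include leaving out E60_1 and E60_2 together. E70_1 and E70_2 had 5 and 2 OPC-like cells, too few to enter, and E70_3 had 77. Without batch correction the 3 libraries held 61, 108 and 3 OPC-like cells. That fit used E50_1, E60_1 and E60_2, since E70_1 and E70_2 then held 4 and 3 astrocyte and radial glia-like cells. The cells named OPC-like at E70 thus depended on the batch correction.

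In the adult nuclei the OPC-like cells (195 nuclei) could be set beside the oligodendrocyte-like cells (1729 nuclei) of the same library. With 1 library there is no test, and a gene was named where the exact Poisson 95% intervals of the levels did not overlap and the levels differed at least 2-fold. Of 34 members with at least 10 UMIs, 16 were higher and 1 lower in OPC-like nuclei, where 5.72% of 11614 genes were higher and 4.91% lower. GRIA4 was at 1912.9 CPM (1740 to 2098) in OPC-like and 130.1 CPM (112 to 151) in oligodendrocyte-like nuclei. GRIA2 was at 1018.2 and 96.9 CPM, GRM5, which releases calcium from internal stores, at 1840.5 and 198.8 CPM and GRID1 at 860.6 and 141.7 CPM. GRM3 was the member with the opposite direction, at 42.6 CPM (20.4 to 78.3) in OPC-like and 729.4 CPM (685 to 776) in oligodendrocyte-like nuclei. The microglia-like nuclei of this library held GRM3 at 44.1 CPM and GRIA4 at 88.2 CPM.

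Genes of the receptors' partners were counted by lists. AMPA and kainate receptor partners (16 genes in the files), such as the TARP CACNG2 that carries AMPA receptors to synapses, had 11 higher and 0 lower in excitatory-like, 14 higher and 1 lower in interneuron-like and 10 higher and 0 lower in OPC-like cells than in astrocyte and radial glia-like cells, of 16, 16 and 14 tested. Of all genes tested 22.4%, 18.9% and 10.4% were higher. The list's median log2 fold changes were 0.83, 1.15 and 0.93, next to 0.11, 0.03 and -0.03 over all genes. CACNG2 was higher by 2.47 ± 0.30 in excitatory-like and 2.80 ± 0.26 in interneuron-like cells (SE), and NETO1, a kainate receptor partner, by 3.58 ± 0.22 in OPC-like cells. Between excitatory-like and interneuron-like cells 6 of 16 were lower and 0 higher, with CACNG3 at -1.85 ± 0.20 (edgeR adjusted p = 0.0006). Of the postsynaptic density genes 10 of 11 tested were higher in excitatory-like and 9 of 11 in interneuron-like cells than in astrocyte and radial glia-like cells, with DLG1 lower in interneuron-like cells at -1.22 ± 0.14. Among GABA receptor partners 4, 5 and 4 of 9 were higher in excitatory-like, interneuron-like and OPC-like cells, and 1 was lower in OPC-like cells. SLC12A2, which loads immature neurons with chloride, was lower in excitatory-like than in astrocyte and radial glia-like cells, at -0.69 ± 0.19 (edgeR adjusted p = 0.016). SLC12A5, which removes chloride, was tested in the comparison of excitatory-like with interneuron-like cells, where neither transporter passed.

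The change from E60 to E70 was tested in the 3 classes with at least 20 cells in at least 2 libraries of each stage, with 3 libraries per stage. Of the IP-like cells 203 of 205 in E60_1 and 44 of 53 in E60_2 lay in a cluster with 0 cells of E70. An astrocyte and radial glia-like cluster held 153 of the 243 cells of E60_3 and 169 of the 360 of E70_3. It held 1 cell each of E60_1 and E60_2. Stage and cluster cannot be told apart in these classes. No gene passed the edgeR test (0.0% of 7741 genes in IP-like, 10832 in interneuron-like and 13220 in astrocyte and radial glia-like cells, higher or lower), and so no member did. At an unadjusted p below 0.05 there were 10 members of 27 in IP-like, 2 of 34 in interneuron-like and 8 of 33 in astrocyte and radial glia-like cells, among 1059, 2950 and 1890 genes. In simulated counts of the interneuron-like comparison 9.9% of genes changed 2-fold and 75.8% of genes changed by a log2 of 2 were recovered, and 10.5% of the calls were false. These counts were drawn from 1 profile common to all libraries with 1 fixed spread. They leave out the difference in clusters between the E60 libraries, so the recovery in the real libraries is not known. DESeq2 called 2 members higher in IP-like cells (GRM5 and GRM8), 1 lower in interneuron-like cells and 4 higher among astrocytes and radial glia, GRIK3 and GRM8 among them. The share of all genes that DESeq2 called is not given here, so these counts cannot be set against it. In the astrocyte and radial glia-like cells GRM8 was at 436.2, 390.6 and 58.7 CPM in the E70 libraries and at 23.0, 24.6 and 63.3 CPM in the E60 libraries. The E70 and E60 values overlapped, and the high libraries are the ones in which GRM8 was high in every class.

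In interneuron-like cells GRIA1 was at 223.9, 154.7 and 1397.9 CPM in the E60 and at 1029.7, 1068.6 and 1522.1 CPM in the E70 libraries. E60_3 lay within the E70 range and E60_1 and E60_2 far below it. Without E60_3, 4 members were higher and 6 lower at E70 in interneuron-like cells, in a fit whose share of all genes called is not given here. The interneuron-like cells of E60_1 and E60_2 were 632 and 94 cells of 2 clusters that held 18 of the 242 cells of E60_3, so stage and cluster cannot be told apart in these libraries. The difference between the stage effects of interneuron-like and astrocyte and radial glia-like cells was tested over 13321 genes, of which 0.0% passed in either direction, and 10 members of 34 and 1561 genes had an unadjusted p below 0.05. Excitatory-like and OPC-like cells were not tested for stage, since too few E60 libraries or E70 libraries held 20 of them.

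The nuclei of E70 held more of most members than whole cells of the same stage. With 1 library of nuclei there is no test. A gene was named where the nuclei lay outside the range of the 3 whole cell libraries and at least 2-fold from their mean. The fractions also differed in their clusters. Of the 499 excitatory-like nuclei 277 lay in a cluster, with GRM7 among its 10 leading genes, that held at most 7 cells of an E70 whole cell library. Another 98 lay in a cluster that held at most 12. Of the 100 astrocyte and radial glia-like nuclei 92 lay in 1 cluster. It held 5 of the 20, 8 of the 32 and 97 of the 360 such cells of E70_1, E70_2 and E70_3. Fraction and cluster cannot be told apart in these classes. In excitatory-like cells 20 of 40 members with at least 10 UMIs were higher in nuclei and 0 lower, where 13.9% of 16494 genes were higher and 24.7% lower. In interneuron-like cells 21 of 34 were higher and 1 lower, where 11.8% of 13564 genes were higher and 23.4% lower, and in astrocyte and radial glia-like cells 14 of 35 were higher and 1 lower, where 13.2% of 13916 genes were higher and 18.1% lower. The median log2 ratio of the members was 1.08, 1.36 and 0.95, against -0.10, -0.14 and 0.30 over all genes.

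GRIA4 was at 1281.8 CPM in the excitatory-like nuclei and at 87.9, 98.8 and 275.0 CPM in the whole cells, 8.33-fold from their mean. GRM7 was at 1512.4 CPM and at 122.9, 188.0 and 281.6 CPM, 7.66-fold, and GRM5 at 2099.6 CPM and at 298.7, 307.0 and 401.3 CPM, 6.26-fold. GABBR1 was the member that was lower in nuclei, at 14.04 CPM in interneuron-like nuclei, against 23.4, 32.0 and 44.97 CPM in whole cells, and at 15.8 CPM in astrocyte and radial glia-like nuclei, against 45.5, 63.9 and 74.3 CPM. The authors counted reads in introns, and 26 of the 40 members span at least 100 kb. GRM7 spans 886 kb and GABBR1 29.7 kb. In excitatory-like cells the median log2 ratio was 1.5998 over the 26 members of at least 100 kb and 0.17 over the shorter ones, next to 0.59 and -0.35 over all genes with a RefSeq span. Across the 40 members the Spearman correlation of span and ratio was 0.62 and across 12408 genes 0.50. It was 0.49 over the members in interneuron-like and 0.29 in astrocyte and radial glia-like cells, where the shorter members also had a median log2 ratio of 0.65. These are given as a description across genes of 1 library of nuclei, since genes are not independent replicates.

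**Figure D5:**
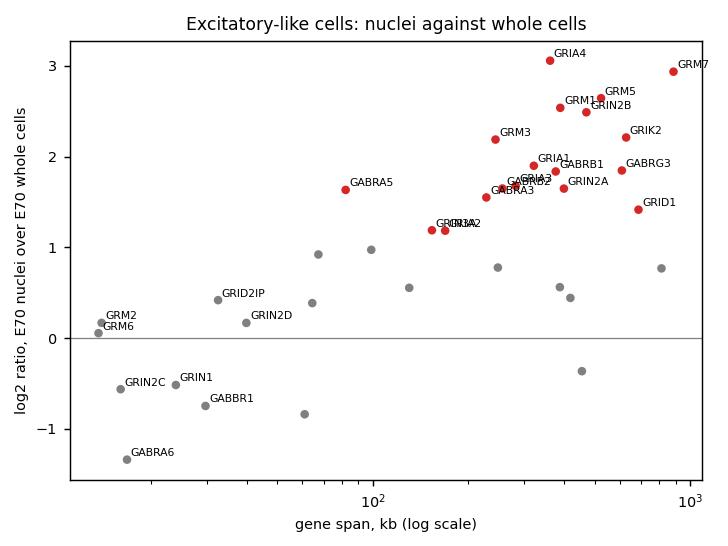
Log2 ratio of the level in E70 nuclei to the mean of the 3 E70 whole cell libraries in excitatory-like cells (vertical axis) against the span of the gene in kb (horizontal axis, log scale), with 1 point for each of 36 members with at least 10 UMIs. Red points lie outside the range of the whole cells and at least 2-fold higher in nuclei, and the 18 of them span between 82.1 and 886 kb.

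The adult was compared with the fetus within nuclei and within whole cells, with 1 adult library of each and no test. The rule was that of the adult OPC-like nuclei. The classes differed in their clusters between the ages, and age and cluster cannot be told apart. Of the excitatory-like nuclei 80 of 120 in the adult and 277 of 499 at E70 lay in 1 cluster, and 0 and 98 in another. Of the interneuron-like nuclei 40 of 43 in the adult and 104 of 173 at E70 lay in 1 cluster, and 1 and 66 in another. In excitatory-like nuclei 3 of 35 members were higher and 2 lower in the adult than at E70, where 6.54% of 11701 genes were higher and 3.44% lower. In interneuron-like nuclei 1 of 33 was higher and 3 lower, where 5.08% of 7045 genes were higher and 4.29% lower. GABBR1 was higher in both, at 57.8 CPM (31.6 to 97.0) and 105.1 CPM (58.8 to 173) in the adult, against 18.5 CPM (13.3 to 25.1) and 14.04 CPM (5.64 to 28.9) at E70. GABRA2, an alpha subunit that is high in the developing brain, was lower in both, at 181.7 and 105.1 CPM, against 366.9 and 266.7 CPM. GRIK5 and GRIK3 were higher and GRM7 lower in the excitatory-like nuclei, and GRM3 and GABRG1 lower in the interneuron-like nuclei. GABRG1 had 0 UMIs in the 43 adult nuclei.

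GRIN2A made up 9.0% (6.0% to 12.9%) of the UMIs of GRIN2A and GRIN2B in the adult and 12.3% (11.1% to 13.5%) in the E70 excitatory-like nuclei. The exact Clopper-Pearson 95% intervals, which cover counting error only, overlapped. In the fetal whole cells the share of GRIN2A in excitatory-like cells was 11.7%, 26.0%, 29.9%, 37.9% and 13.2% in E50_1, E60_3, E70_1, E70_2 and E70_3, so that the E70 libraries spread as widely as the stages.

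In astrocyte and radial glia-like whole cells, 56 in the adult, 10 of 38 members were higher and 3 lower than in the pooled fetal whole cells, where 13.9% of 16235 genes were higher and 11.7% lower. GRM3 was at 527.0 CPM (468 to 591), against 119.7 CPM (116 to 124), and GRIK4 at 431.8 CPM, against 116.5 CPM. GRIA2 was at 20.1 CPM, against 78.6 CPM. The pooled intervals leave out the spread between fetal libraries. GRM3, GRIK4 and GRIA2 lay outside the range of the 7 fetal libraries. GRIK1, lower by the rule at 106.1 CPM against a pooled 260.8 CPM, lay within their range of 55.2 to 667.3 CPM, and GRM8 within theirs of 23.0 to 436.2 CPM. Of the 56 adult cells 50 lay in 1 cluster, which held 666 of the 2277 cells of E60_1 and 23 of the 243 of E60_3. GRM8, which was higher in the adult by this rule, was at 119.9 CPM in microglia-like cells of that library. In oligodendrocyte-like whole cells 7 of 32 members were higher and 7 lower, where 18.0% of 12453 genes were higher and 11.1% lower. GRIA4 was at 29.7 CPM (22.5 to 38.4), against 616.3 CPM (557 to 680), GRIA2 at 14.1 CPM, against 170.5 CPM, and GRM3 at 315.9 CPM (291 to 342), against 14.1 CPM (6.44 to 26.7). The fetal oligodendrocyte-like cells came from E60_1 and E60_2, and 100 of the 112 and 20 of the 21 lay in a cluster led by BCAS1, GPR17 and ENPP6, which mark cells newly committed to this lineage. This cluster held 6 of the 224 adult cells, of which 190 lay in a cluster led by ERMN, MAG and MBP, genes of mature myelin. GRM3 was thus high and GRIA4 low in the adult oligodendrocyte-like cells of both fractions.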

How the data were processed

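Per the labels, libraries were made on the 10X Genomics platform, and the authors mapped reads with Cell Ranger 2.20 to Sscrofa11.1. By the study's methods introns were counted, and intronic and exonic UMIs were not separated here. The deposited values are raw UMI counts per gene and cell, before any normalization. Counts were scaled to 10000 UMIs per cell, 3000 variable genes without members, partners and markers (182 genes) were reduced to 50 principal components, merged by the steps of FastMNN and clustered by the Louvain method at a resolution of 1.6. Clusters took the class whose markers had the highest mean standardized level, with at least 3 detected. A cluster was left unnamed if its 10 leading genes held more markers of another class than of its own. The same held for markers of Purkinje, cerebellar granule, photoreceptor, midbrain, thalamus or ciliated cells, and for low UMIs without an own marker. The ciliated list was chosen after the clusters were seen. It left 859 cells unnamed, 840 of them of E60_1, whose best class was astrocyte and radial glia-like. Counts were summed per library and class of at least 20 cells and fitted with edgeR 4.0.16 (TMM, filterByExpr, quasi-likelihood). The same script was tested on simulated data: in the comparison of interneuron-like with astrocyte and radial glia-like cells (12515 genes), 65.6% of genes changed by a log2 of 1 and 100.0% of those changed by a log2 of 2 were recovered. The simulated libraries shared 1 profile and 1 fixed spread, which the real libraries do not. DESeq2 1.42.0, no filter, left-out libraries, clusters without batch correction, cells without Scrublet doublets (186 of 28229 cells, 0.659%, none in E60_1 and E60_2) and cells without those over 3 times the median UMIs of their library were alternatives. Named were up to 8 members per direction with the largest change past the threshold, and widely studied subunits. Nothing says which libraries share an animal, so p-values measure the spread between these libraries. The members and lists were chosen with earlier results of these data known. Positions are those of RefSeq. Some members enter the counts and medians but are not reported singly here.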

Additional observations from a re-analysis of the deposited data

How the results depend on the processing

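Called members kept their sign in each setting run for the tested comparisons of classes. The counts in this section are of members only, without the share of all genes called under the same setting. Between excitatory-like and interneuron-like cells 5 members were higher under DESeq2, without a filter and without cells of high UMIs, and 4 were lower without E70_1 and E70_2. Between excitatory-like and IP-like cells 1 was lower without a filter, with at least 50 cells and without E70_1 and E70_2, and 7 were higher and 0 lower without batch correction. Between interneuron-like and astrocyte and radial glia-like cells 6 were lower without a filter or without E60_1 and E60_2, and 1 without batch correction. From E60 to E70, DESeq2 called 2 higher in IP-like, 1 lower in interneuron-like and 4 higher in astrocyte and radial glia-like cells, and without a filter 1 was higher and 1 lower in IP-like and 1 lower in interneuron-like cells. Without cells of high UMIs 1 member was lower in excitatory-like nuclei than in whole cells, and 1 was higher and 0 lower in adult excitatory-like nuclei. Without batch correction 13 were lower in adult oligodendrocyte-like cells, and in the astrocyte and radial glia-like nuclei GRIA2 (-0.36) and GRM8 (2.13) changed the sign of their log2 ratio to whole cells. The cause was not tested.

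Leaving out 1 library at a time gave 2 to 7 members higher and 3 to 11 lower in excitatory-like than interneuron-like cells, and 13 to 19 higher and 0 to 2 lower than in IP-like cells, with 0 without E70_3. Against astrocyte and radial glia-like cells it gave 11 (without E60_3) to 17 higher in excitatory-like, 18 to 20 in interneuron-like and 10 to 13 in OPC-like cells, and 7 to 8, 2 to 4 and 5 to 6 lower. For the stages, 0 to 6 were higher in IP-like and in astrocyte and radial glia-like cells, the 6 without E70_3, and 0 to 4 higher and 0 to 6 lower in interneuron-like cells, the 4 and 6 without E60_3. The difference between classes had 0 to 3 higher and 0 to 13 lower, the 3 and 13 without E60_3. For nuclei, 0 to 1 were lower in excitatory-like and 1 to 5 in astrocyte and radial glia-like cells, the 1 and 5 without E70_3. The replicate numbers did not pair the samples, since same-numbered libraries had correlations between -0.13 and 0.11, and with the number as a replicate block 0 members passed in each class. The stage tests in excitatory-like and OPC-like cells, and those without batch correction in IP-like and astrocyte and radial glia-like cells and for the difference, were not run. Leaving out E70_1 and E70_2 together, leaving out the cells of high UMIs and the list for ciliated cells were chosen with the data in view. The shallow adult nuclei limit every adult comparison.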
